A study of Mus musculus with 12 samples.

Results

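miR-22 and miR-22* (mmu-miR-22 and mmu-miR-22* on the array) are the mature miRNAs cut from both sides of the hairpin encoded by Mir22, and they are named miR-22-3p and miR-22-5p in RefSeq. Both were chosen by their names on the array and by their measured signals and detection marks over days 1, 3, and 5, with the guide strand, miR-22, set against the opposite strand, miR-22*. They are 2 of the 696 mouse miRNAs on the array, and both of them were detected. Because these signals chose them, their changes over time are given below as a description, without a test. Bone marrow of male C57BL/6 mice, 6 to 8 weeks old, was depleted of B220/CD45R+ and CD3+ lymphocytes. The remaining cells, enriched for osteoclast precursors, were cultured with M-CSF and RANKL at 30 ng/ml each for 1 day, 3 days, or 5 days. For each day, 4 independent cultures were hybridized to 4 arrays read in 1 color. Every group received both cytokines, so that no culture without RANKL was compared. The cultures are mixed populations and were not sorted again before RNA was extracted.

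A miRNA gene is transcribed into a hairpin, which the enzymes Drosha and Dicer trim to a short duplex. The guide strand of the duplex is loaded into an Argonaute protein and directs it to target mRNAs through its seed, the bases near its 5′ end, while the opposite or star strand is usually degraded. miR-22 is a conserved miRNA that is found in many tissues and is studied in heart muscle, in skeletal muscle, and in blood-forming cells, where TET2, an enzyme that oxidizes methylated DNA, is among its known targets. M-CSF keeps the myeloid precursors alive, and RANKL drives them to fuse into osteoclasts.

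Both mature sequences are shown 5′ to 3′, because the seed in capitals (bases 2 to 8) sets which mRNAs each strand can bind.
miR-22 (miR-22-3p): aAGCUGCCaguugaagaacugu
miR-22* (miR-22-5p): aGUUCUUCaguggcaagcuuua
Each strand is 22 bases long, and their seeds differ. Of the 696 miRNAs on the array, 554 were matched through their probes to 1 mature sequence in RefSeq (assembly GRCm38.p6), and 0 of the others shared a seed with miR-22 or with miR-22*. No other mature sequence of the RefSeq table had either seed. The next sequence is the hairpin of 95 bases, with the strands in capitals, to show that miR-22* lies on its 5′ side and miR-22 on its 3′ side.
Mir22 hairpin: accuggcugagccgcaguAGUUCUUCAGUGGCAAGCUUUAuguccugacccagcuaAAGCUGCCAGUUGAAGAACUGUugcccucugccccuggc
In GRCm38.p6 the hairpin lies on the plus strand at chr11:75463716-75463810, with miR-22* at chr11:75463734-75463755 and miR-22 at chr11:75463772-75463793. It falls within the bounds of Mir22hg, its non-coding host gene (chr11:75461539-75466690), between the protein-coding genes Wdr81 and Tlcd2. The gene table does not give exons.

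Each strand was read by a pair of probes that differ by 1 base, and both are shown because the signal of the strand is taken from both. The capital marks the base by which the longer probe exceeds the shorter one.
miR-22, shorter probe: acagttcttcaactggca
miR-22, longer probe: acagttcttcaactggcaG
miR-22*, shorter probe: taaagcttgccactgaag
miR-22*, longer probe: taaagcttgccactgaagA
The probes are complementary to the 3′ end of the mature miRNA. The shorter ones cover bases 5 to 22 and the longer ones bases 4 to 22. The annotation of the array lists the shorter probe of miR-22 at chr11:75277279-75277295 and that of miR-22* at chr11:75277241-75277257 in the mouse build mm9, places that are 1 base shorter than the probes. Each probe was spotted 10 times, which gives 20 spots per strand and array.

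Between 186 and 276 miRNAs were detected per array. The total signal of all mouse miRNAs at day 3 averaged 58.4% of that at day 1, and at day 5 it averaged 80.3%. Slide 1, read in scan 1, carried the cultures of days 1 and 5, and slide 2, read in scan 2, carried those of day 3, so that day 3 and slide 2 cannot be told apart. The array measures no mRNA, and osteoclast identity can therefore not be checked against Acp5 or Ctsk. Of the myeloid miRNAs, miR-223, miR-142-3p, and miR-142-5p were detected on all 12 arrays. The erythroid miR-451 and miR-144 together held between 1.94% and 2.90% of the summed signal on the day 1 arrays and between 0.00863% and 0.0188% on the day 5 arrays. The 5 stromal miRNAs (miR-214, miR-199a-5p, miR-199a-3p, miR-145, and miR-143) together held between 0.0339% and 0.0498% at day 1, between 0.0415% and 0.0466% at day 3, and between 0.177% and 0.234% at day 5. The part of these cells in the changes of miR-22 and miR-22* was not tested. In such bulk RNA, fewer cells of a type and less RNA per cell cannot be told apart.

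The guide strand miR-22 was detected on all 12 arrays, and every one of its spots was well above background with none saturated. Its total signal, a linear intensity from which Feature Extraction had subtracted the background and which was not scaled across arrays, was 24936, 21611, 26833, and 23105 on the day 1 arrays. On the day 3 arrays it was 20595, 18457, 18682, and 19830. On the day 5 arrays it was 42414, 34939, 40766, and 36383. In these unnormalized values the day 3 arrays were the lowest, the day 1 arrays lay just above them, and the day 5 arrays were the highest, with no overlap between any of the days. Overlap on this scale was not counted over all miRNAs. The means were 24121 ± 2262 at day 1, 19391 ± 1003 at day 3, and 38626 ± 3538 at day 5 (SD, n = 4). The spots of miR-22 had a median signal that averaged 196 times the local background at day 1, 186 times at day 3, and 347 times at day 5.

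Since the arrays differed in total signal, miR-22 was also expressed as a share of the summed signal of all mouse miRNAs on its array. This share was 1.26%, 1.25%, 1.42%, and 1.58% on the day 1 arrays. It was 1.82%, 1.90%, 1.87%, and 1.95% on the day 3 arrays and 2.70%, 2.67%, 2.84%, and 2.70% on the day 5 arrays. On this scale the days followed each other in time, and the arrays of each later day lay above all arrays of the earlier days. Overlap in these shares was not counted over all miRNAs either. The mean share went from 1.38% ± 0.157 to 1.89% ± 0.0570 and then to 2.73% ± 0.0771 (SD, n = 4). The share is of signal, not of molecules, since each probe has its own brightness. It also depends on the other signals in the sum.

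The setting used for comparisons was quantile normalization over the 334 miRNAs detected on at least 1 array, followed by log2. It places each miRNA by its rank on the array. miR-22 ranked 22nd on 3 of the day 1 arrays and 17th on day 1 replicate 4. It ranked between 13th and 17th at day 3 and between 9th and 10th at day 5. The normalized log2 signal was accordingly 14.22 on 3 day 1 arrays and 14.63 on day 1 replicate 4. At day 3 it was 14.63, 14.92, 14.92, and 14.85, and at day 5 it was 15.21 on 3 arrays and 15.34 on replicate 3. The day 5 arrays were above all others, while day 1 and day 3 met at the value shared by day 1 replicate 4 and day 3 replicate 1. A rank also depends on the other miRNAs. From day 1 to day 5 the mean normalized signal of miR-1224 fell past that of miR-22, from 16.05 to 13.91. The mean of miR-451 also fell past it, from 14.94 to 7.70, whereas that of miR-23b rose past it, from 13.21 to 15.34. Such moves were not counted over all miRNAs.

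Between day 1 and day 5 the normalized signal of miR-22 differed by 0.92 on the log2 scale (SE 0.11), or 1.90-fold. A difference of 0.51 (SE 0.11) separated day 3 from day 1, and one of 0.41 (SE 0.11) separated day 5 from day 3. With this scaling 55.1% of the change was present by day 3, whereas without normalization day 3 was below day 1. Among all 334 miRNAs tested, the change of miR-22 from day 1 to day 5 was the 104th highest. Of the 152 miRNAs that were detected at both days on every array it was the 47th highest. The median change of all 334 was 0.11.

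The opposite strand miR-22* was also detected on all 12 arrays, with all spots well above background and none saturated. Its total signal was 1430, 1237, 1472, and 853 on the day 1 arrays. It was 1139, 931, 1038, and 984 on the day 3 arrays and 2034, 1626, 1556, and 1500 on the day 5 arrays. In these unnormalized values all day 5 arrays lay above the others, and the day 3 arrays lay within the range of day 1, where replicate 4 was the lowest of all arrays. The means were 1248 ± 283 at day 1, 1023 ± 88.8 at day 3, and 1679 ± 242 at day 5 (SD, n = 4). The signal of its spots averaged 13.3, 13.8, and 17.4 times the local background at days 1, 3, and 5. Spots of the same probe varied more than for the guide strand, with a coefficient of variation averaging 8.87%, 11.0%, and 6.46% at days 1, 3, and 5, against 4.43%, 4.46%, and 3.71% for miR-22.

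As a share of the summed signal, miR-22* held 0.0723%, 0.0717%, 0.0781%, and 0.0584% on the day 1 arrays. It held 0.1005%, 0.0959%, 0.104%, and 0.0970% at day 3 and 0.129%, 0.124%, 0.109%, and 0.111% at day 5. The 3 days were again in order of time without overlap, which was not counted over all miRNAs. The normalized log2 signal was 9.80, 9.90, 10.12, and 9.61 at day 1. It was 10.60, 10.60, 10.83, and 10.66 at day 3, and 10.94, 11.06, 10.72, and 10.72 at day 5. Here the day 1 arrays were below all others, while day 3 and day 5 overlapped.

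The normalized signal of miR-22* differed by 0.82 (SE 0.12) between day 1 and day 3, or 1.76-fold, and by 1.01 (SE 0.12) between day 1 and day 5, or 2.01-fold. Between day 3 and day 5 the difference was 0.19 (SE 0.12), within the overlap of the arrays. With this scaling 81.1% of the change was present by day 3, a portion that depends on the scaling. The change of miR-22* from day 1 to day 5 was the 97th highest of the 334 miRNAs tested and the 41st highest of these 152. In normalized values both strands were without overlap higher at day 5 than at day 1, as were 32.6% of all miRNAs tested. From day 1 to day 3 only miR-22* of this pair was so, because miR-22 had a value shared by both days. Of all miRNAs tested, 29.9% were higher without overlap in this step, and 29.6% were lower. From day 3 to day 5 only miR-22 was so (22.5%). In both steps 13.8% of all miRNAs tested were so, and neither strand was. In shares of summed signal both strands were higher without overlap in both steps, but overlap on that scale was not counted over all miRNAs.

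**Figure D1:**
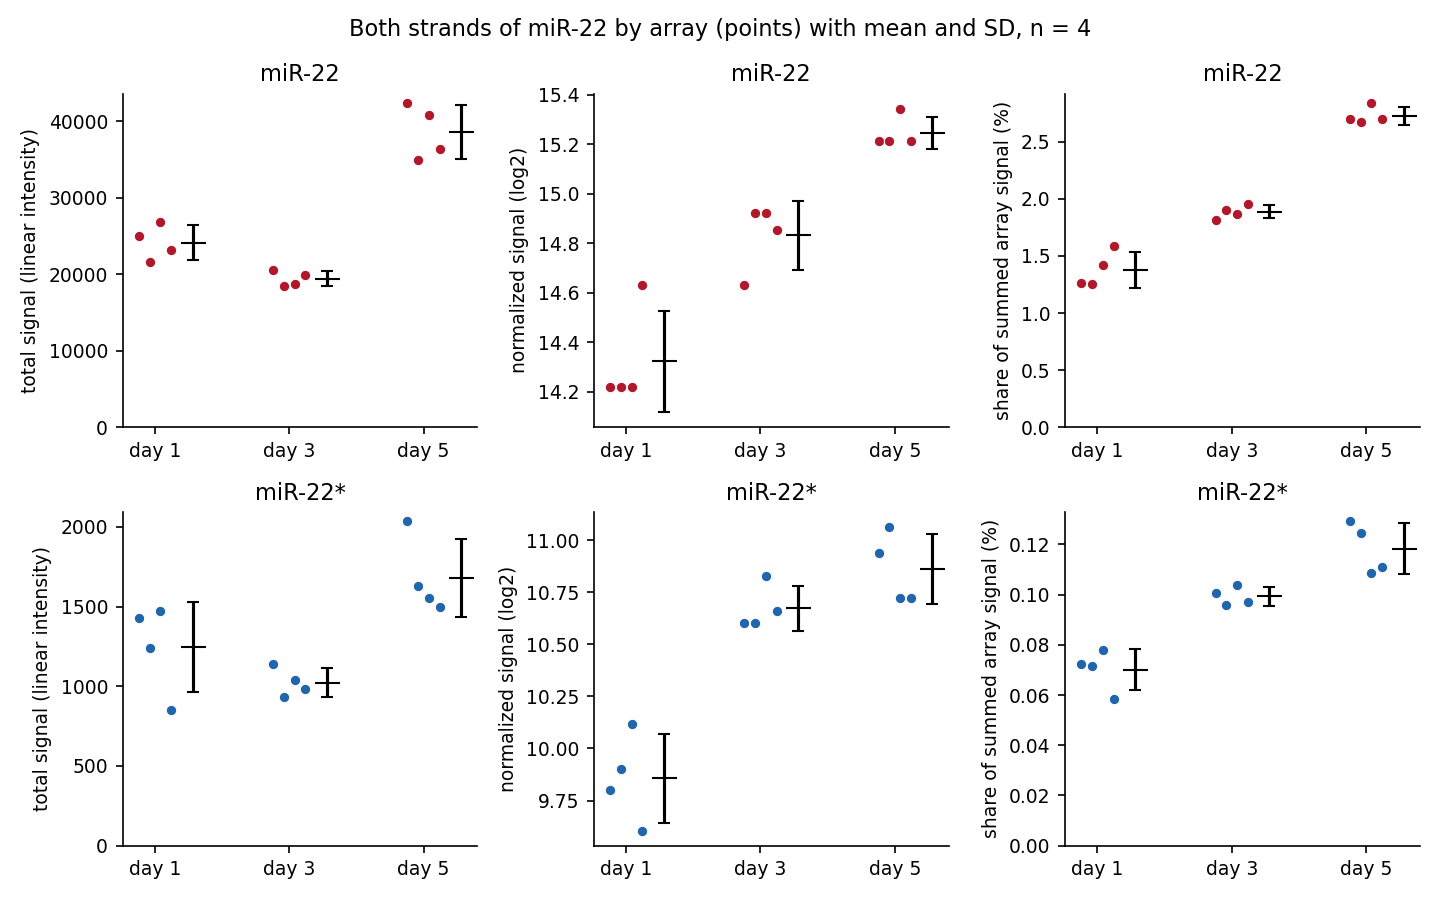
Values of miR-22 (upper row) and miR-22* (lower row) on each of 12 arrays by day, as total signal (linear intensity), as normalized log2 signal, and as percent of the summed signal of the array. Points are arrays, and the bars are the mean and SD (n = 4). Total signal is lowest on average at day 3, while the normalized signal and the share are higher at day 3 than at day 1.

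**Figure D2:**
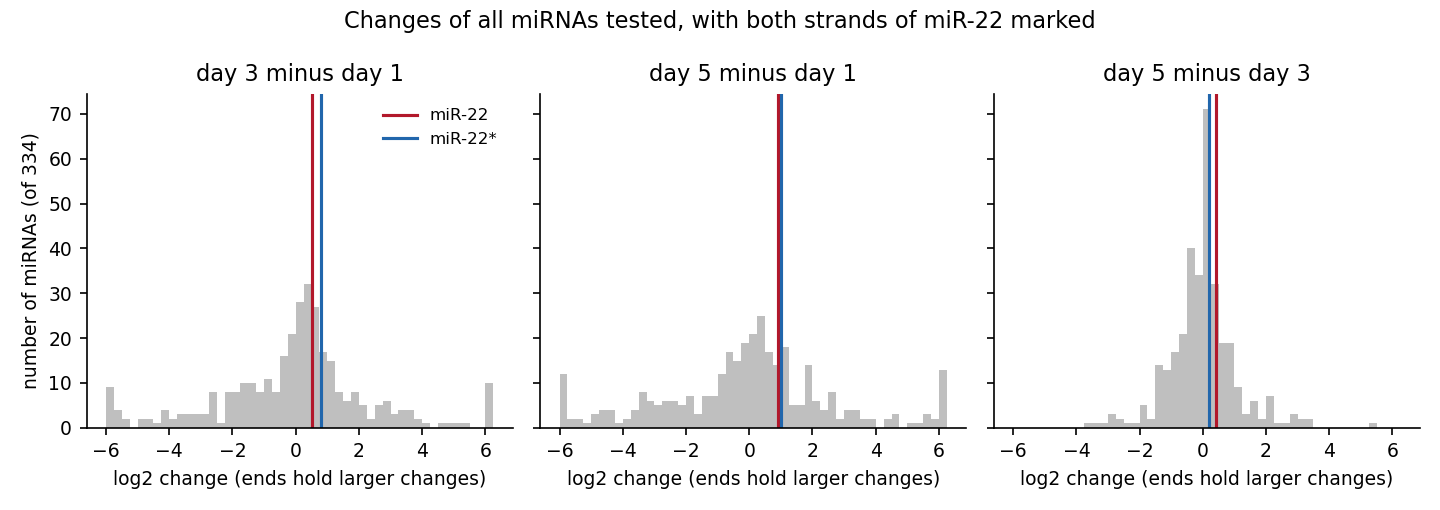
Number of miRNAs (of 334 tested) by log2 change for each pair of days, with miR-22 in red and miR-22* in blue. Changes beyond 6 in either direction are counted in the end bars. Both strands lie to the right of the middle of the distribution in each comparison, miR-22 at 0.51, 0.92, and 0.41.

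The level of day 3 relative to day 1 depended on the scaling. Without normalization, miR-22 was lower at day 3 by a log2 difference of -0.31 (SE 0.08), and miR-22* by -0.26 (SE 0.19). The median unnormalized difference of the miRNAs detected on all 12 arrays was -0.58, so that both strands lay above this shift. With every scaling tried, namely quantile, the 75th percentile of either the always detected or all miRNAs, and the sum of signals, both strands were higher at day 3 than at day 1. miR-22 was higher by 0.41 to 0.51 and miR-22* by 0.47 to 0.82 in these settings.

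Days 1 and 5 shared a slide and a scan, and this comparison had 1 direction throughout. Without normalization, miR-22 was 1.60-fold higher at day 5 (log2 difference 0.68, SE 0.09) and miR-22* was 1.37-fold higher (0.45, SE 0.21), while the median difference of the miRNAs detected on all 12 arrays was -0.03. When the arrays of slide 1 were normalized and fitted alone, the differences were 0.97 for miR-22 and 1.04 for miR-22*. In the log2 values deposited by the authors they were 0.80 and 0.94.

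**Figure D3:**
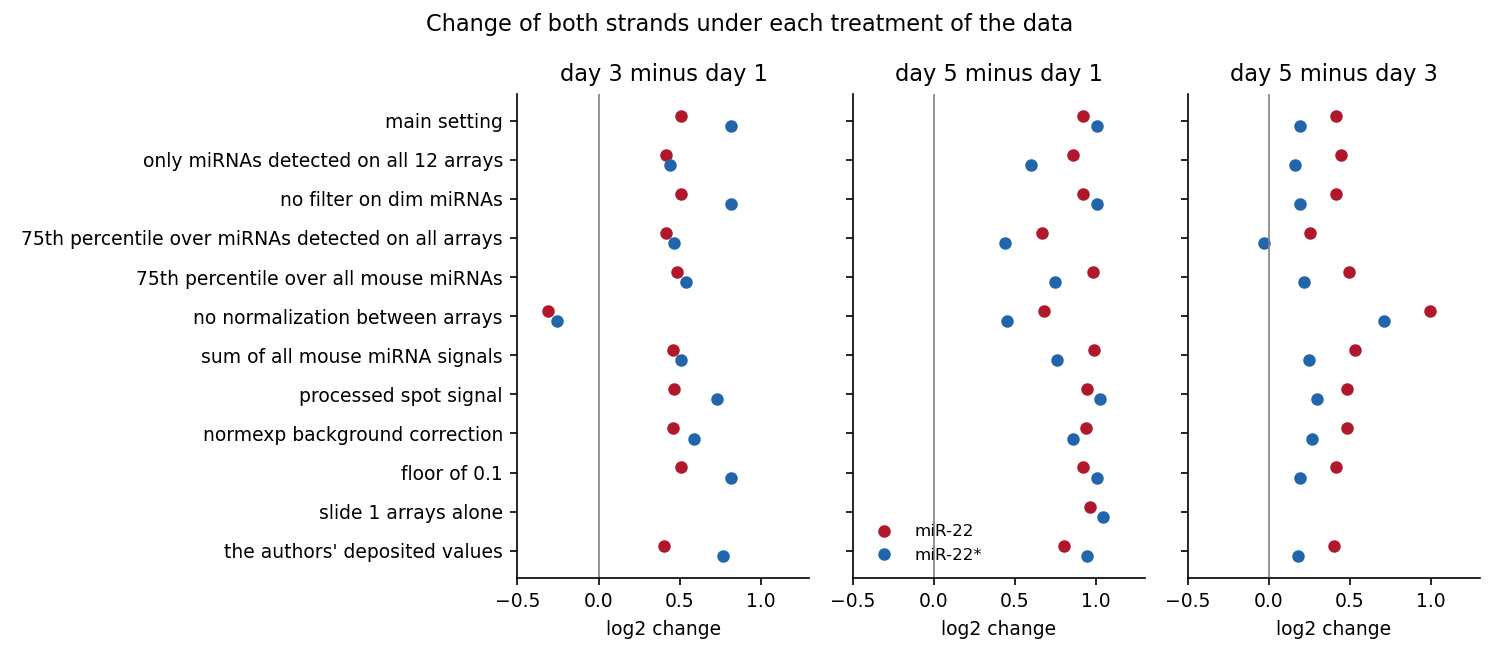
Log2 change of miR-22 (red) and miR-22* (blue) for each pair of days under each treatment of the data, with a line at 0. Between day 1 and day 5 every point lies above 0. From day 1 to day 3 the points without normalization, at -0.31 and -0.26, lie below 0, and from day 3 to day 5 that of miR-22* with the 75th percentile of the always detected miRNAs lies at -0.027.

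The probes of each strand changed alike, but they share all bases except 1 and are not independent measurements. For miR-22 the unnormalized log2 difference between day 5 and day 1 was 0.68 (SE 0.10) by the shorter probe and 0.68 (SE 0.10) by the longer one. Between day 3 and day 1 these were -0.33 (SE 0.08) and -0.30 (SE 0.08). For miR-22* the probes gave 0.44 (SE 0.20) and 0.45 (SE 0.21) for day 5, and -0.24 (SE 0.19) and -0.27 (SE 0.19) for day 3. The mean day 5 signal of the longer probe of miR-22 was 23362 ± 2126 and that of the shorter probe 15263 ± 1429 (SD, n = 4).

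The strands were then set against each other within each array, where any factor that scales the whole array cancels. The log2 signal of miR-22* over miR-22 is given relative to its day 1 mean, because a ratio between different probes says nothing on the ratio of the molecules. It was 0.18, 0.17, 0.11, and -0.46 on the day 1 arrays. It was 0.12, -0.01, 0.13, and -0.03 at day 3 and -0.08, -0.13, -0.41, and -0.30 at day 5. All day 5 arrays lay below all day 3 arrays, whereas day 1 spanned the whole range because of replicate 4.

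From day 3 to day 5 the star strand changed relative to the guide by -0.28 (SE 0.09) without normalization. On these arrays the signal of miR-22 thus gained more than that of miR-22*. Day 3 and day 5 were on different slides and scans, however. A slide effect that differs between probes would not cancel in this ratio and cannot be told apart from the day. Of 15 other pairs of strands detected on all 12 arrays, 26.7% also had day 3 and day 5 arrays that did not overlap in this ratio. Day 1 and day 5 shared a slide and a scan. The relative change between day 1 and day 5 was -0.23 (SE 0.17), and the arrays overlapped. Of the other pairs, 33.3% were without overlap. Without day 1 replicate 4 the relative change was -0.38 (SE 0.08) without overlap, so that this array decides whether the days are apart. Between day 1 and day 3 it was 0.05 (SE 0.16), or -0.10 (SE 0.05) without that array, and the arrays overlapped in both cases, whereas those of 60% of the other pairs did not. After quantile normalization the change of miR-22 minus that of miR-22* was -0.08 from day 1 to day 5 (SE 0.21). It was -0.31 from day 1 to day 3 (SE 0.21) and 0.22 from day 3 to day 5 (SE 0.21). These SEs come from a fit to all arrays. Those of the unnormalized ratio come from the compared days alone, and a fit without normalization gave 0.18.

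**Figure D4:**
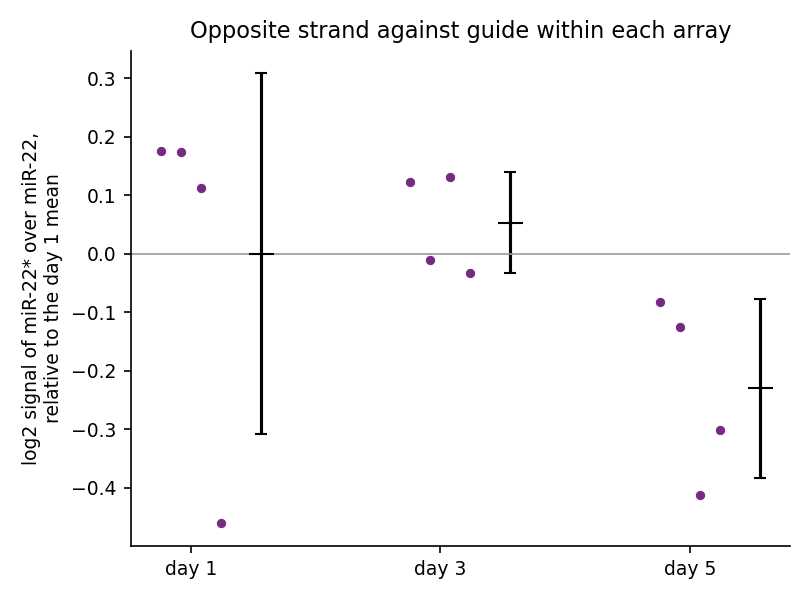
Log2 signal of miR-22* over miR-22 on each array, unnormalized and relative to the day 1 mean, by day. Points are arrays, and the bars are the mean and SD (n = 4). The day 5 arrays lie between -0.41 and -0.08, below the day 3 arrays, and day 1 replicate 4 lies at -0.46, apart from the other day 1 arrays.

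To place this pair among others, the 159 pairs of entries named for both strands of a hairpin on the array were examined. In 51 of them both strands were tested, and in 18 both strands were detected on all arrays of days 1 and 5. Among these 18, the normalized changes of miR-22 and miR-22* from day 1 to day 5 differed by the least, by -0.08 (SE 0.21). The next were miR-532, with 1.19 (SE 0.09) for the 5p and 1.09 (SE 0.12) for the 3p strand, and miR-362, with 1.73 (SE 0.20) and 1.62 (SE 0.12). Their strands differed by 0.10 (SE 0.14) and 0.12 (SE 0.22), so that the order of these pairs is not resolved. Among all 51 tested pairs, that of miR-22 was the 4th from the smallest difference. The median absolute difference between strands over the other 17 pairs was 0.65. In the unnormalized ratio the order was different, and 4 of the other 15 pairs changed less than that of miR-22. When the 148 always detected miRNAs alone were quantile normalized, the strands of miR-22 differed by 0.26, so that their closeness depends on the scaling and the filter.

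At the other end, miR-1897-5p changed by -3.55 (SE 0.21) and miR-1897-3p by 0.33 (SE 0.13), miR-324-5p changed by 1.84 (SE 0.09) and miR-324-3p by 0.27 (SE 0.14), and miR-139-5p changed by -1.63 (SE 0.15) and miR-139-3p by -0.18 (SE 0.63). Of the other 17 pairs, 4 had both strands higher at day 5 in limma with an adjusted p under 0.01, 0 had both strands lower, 0 had strands called in opposite directions, 9 had 1 strand called, and 4 had neither. Over the other 50 pairs with both strands tested, 13 had both strands higher and 1 had both lower, but only 4 of these 13 are among the pairs detected on all arrays of both days, and the calls of the others rest in part on values below detection. For comparison, 60.8% of all miRNAs tested were called for this pair of days, 31.7% as higher and 29% as lower.

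**Figure D5:**
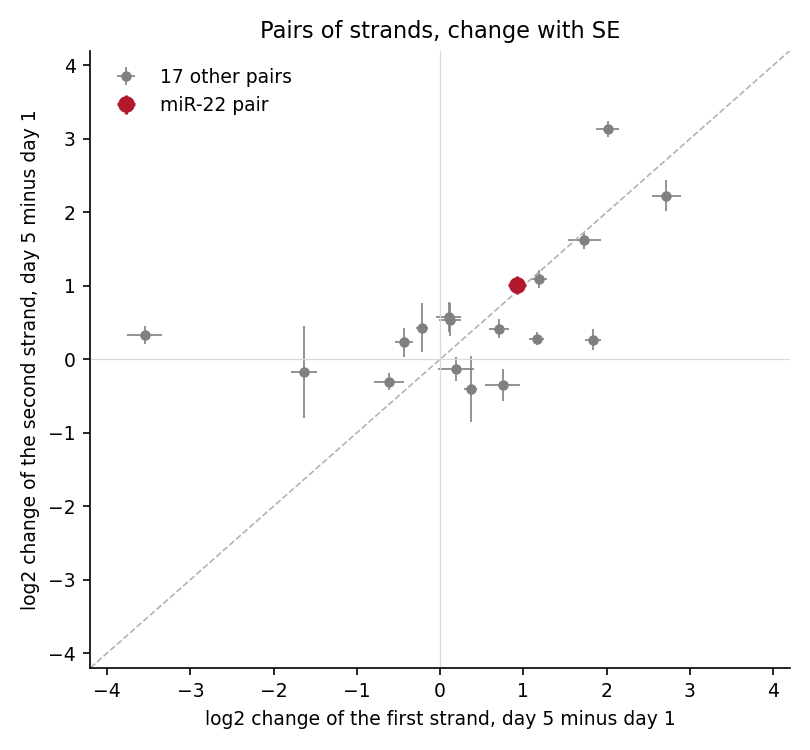
Log2 change from day 1 to day 5 of the first strand (horizontal) and the second strand (vertical) of 18 pairs detected on all arrays of both days, after quantile normalization, with SE. The first strand is the one without the star, or the 5p strand. The miR-22 pair, in red at 0.92 and 1.01, lies close to the dashed line of equal change, and miR-1897 at -3.55 and 0.33 lies farthest from it.

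The miRNAs whose normalized values followed miR-22 most closely were sought among the other 147 detected on all 12 arrays. Likeness was measured by the root mean square difference of the 12 log2 values, each miRNA having its own mean subtracted. The closest were miR-30e (0.156), miR-103 (0.156), miR-29c (0.162), miR-532-3p (0.177), and miR-30b (0.178). Their changes from day 1 to day 5 lay between 0.71 (miR-30e) and 1.09 (miR-532-3p), around the 0.92 of miR-22. For miR-22* the closest were miR-34a (0.109), let-7d (0.118), let-7f (0.130), let-7a (0.133), and miR-128 (0.135), with changes between 0.81 (miR-128) and 1.08 (let-7d). Spots of let-7f were saturated on all 4 arrays of day 5 and on 1 array of day 1, so that the size of its change is not known. Despite their common hairpin, the strands were not the closest to each other in these normalized values of all 12 arrays. With a root mean square difference of 0.266, miR-22* was 25th in the order for miR-22, and miR-22 was 22nd in that for miR-22*. The normalized log2 signals of the strands were farthest apart on day 1 replicate 4, by 5.02. At day 3 they were at most 4.32 apart and at day 5 at most 4.62. The order was not computed without that array or with another scaling.

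On chromosome 11 the array lists miR-132 and miR-212-3p as the other miRNAs within 1 Mb of miR-22, about 290046 and 290325 bases away in mm9. Both come from neighboring hairpins and are known as miRNAs induced by neuronal activity and growth signals. miR-132 was detected on all 4 arrays at day 1, on 0 at day 3, and on 3 at day 5. Its normalized signal at day 5 was below that at day 1, having fallen by a log2 difference of -0.93 (SE 0.17, limma, Benjamini-Hochberg adjusted p = 0.000571). miR-212-3p was detected on 4, 4, and 3 arrays and was higher by 0.85 at day 5 (SE 0.23, limma, adjusted p = 0.00749). The neighbors thus moved in opposite directions on average, and miR-212-3p had the direction of miR-22. The day 1 and day 5 arrays of miR-212-3p overlapped, however.

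A list of 16 miRNAs with a reported role in cells of the osteoclast lineage served as a further comparison, and 14 of these were tested. At day 3, 4 of them were higher than at day 1, 2 were lower, and 8 did not pass an adjusted p of 0.01 in limma, where 27.2% of all miRNAs tested were higher and 52.4% changed in either direction. At day 5, relative to day 1, 7 rose, 3 fell, and 4 did not pass (among them miR-21, which was saturated on all 12 arrays and so could not be compared), against the 31.7% and 29% of all miRNAs given above. The median change of the 14 was 0.60, below both strands of miR-22, and that of all miRNAs was 0.11. Of the called rises, miR-183 had the highest fitted change. It was not detected at day 1 and was at least 325-fold higher at day 5, a bound that rests on the lowest signal detected on each day 1 array, and no p is given because it was tested only through the days on which it was detected. miR-214, which is also counted among the stromal miRNAs above, was detected on 1 array at day 1 and on 3 at day 5, so that its rise has no firm size. The next was miR-29b, a repressor of collagen and other matrix genes, with 1.90 (SE 0.15, limma, adjusted p = 1.13e-06). Among the falls, miR-155, an inflammatory miRNA detected on 4, 0, and 3 arrays at days 1, 3, and 5, changed by -1.05 (SE 0.25, limma, adjusted p = 0.00368), and miR-148a changed by -0.43 (SE 0.07, limma, adjusted p = 0.000177). miR-223, a miRNA of granulocytes and monocytes, was called as lower but was saturated on all arrays of days 1 and 5, so that its fall has no known size and the falls cannot be ranked. Of this list, miR-29c with 0.95 (SE 0.07) and miR-34a with 1.00 (SE 0.12) were also among the miRNAs most like the strands of miR-22.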

How the data were processed

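Total RNA (200 ng per culture) was labeled with Cy3 and hybridized to mouse miRNA arrays. The deposited scanner files (Agilent Feature Extraction 9.5.3.1) give each spot and miRNA a linear intensity beside other marks for detection and saturation. In a further deposited table the authors gave log2 values that they had quantile normalized in GeneSpring GX. The 334 miRNAs with a detected signal on 1 or more of 12 arrays were quantile normalized, raised to a floor of 1 where lower (9.28% of values), converted to log2, and fitted with 1 mean per day (limma 3.58.1, R 4.3.3). Python 3.11.15 was used for tables and figures. Normalized changes of miR-22 and miR-22* are estimates with the SE of this fit. For unnormalized differences, single probes, and the strand ratio, the SE comes from the arrays of the compared days alone. The SEs of these kinds are therefore not comparable. Such a fit without normalization gave SEs of 0.115 for miR-22, 0.185 for miR-22*, and 0.184 for the strand difference. Other miRNAs were called at a Benjamini-Hochberg adjusted p under 0.01. The labels give 4 cultures per day without naming animals, so p values measure the spread between these cultures. The number of arrays limits the precision.

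Named were both strands, the 5 miRNAs most like each, the neighbors, the 3 largest rises and falls of the osteoclast list, and the strand pairs with the 3 largest and 3 smallest differences (the pair of miR-22 among them). The members and lists were chosen with earlier results of these data known. The lists held osteoclast, erythroid (miR-451, miR-144, with miR-144* and miR-486 not found under these names), lymphoid (miR-150, miR-181a, miR-181b), myeloid, megakaryocytic (miR-126-3p), and stromal miRNAs. From day 1 to day 5, 2 of 2 erythroid, 1 of 3 lymphoid (miR-181a), and the megakaryocytic miRNA fell, while 4 of 5 stromal miRNAs rose, with miR-145 the exception (31.7% of all miRNAs tested rose and 29% fell). The lymphoid miR-181b changed by 0.45 and did not pass. The lymphoid miR-150 changed by -3.08 and did not pass either, but was detected on 4, 0, and 0 arrays at days 1, 3, and 5. Several of these miRNAs were not detected on every array. Alternatives covered filters, scalings, signals, the floor, the slide, the test, the threshold, the replicate block, and each array left out.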

Additional observations from a re-analysis of the deposited data

Results flagged for a closer look

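In 63 sets of 4 arrays, the highest or lowest array was compared with the rest by its gap over the range, and 8 stood apart by Dixon's test. Chance alone gives about 1 in 20 for continuous values. That rate does not apply to the normalized sets, where arrays can share a value. For the strands of miR-22, the log2 signal of miR-22* over miR-22 on day 1 replicate 4 was -4.76, against a nearest value of -4.19. The normalized log2 signal of miR-22 was 14.63 on day 1 replicate 4, where the other day 1 arrays shared 14.22, and 15.34 on day 5 replicate 3, where the others shared 15.21. At day 3, let-7f was at 15.87 on replicate 1, miR-128 at 8.90 on replicate 4, miR-21 at 16.30 on replicate 3, miR-148a at 10.66 on replicate 3, and miR-223 at 15.90 on replicate 1. In these normalized sets the other arrays held identical values, since arrays that give a miRNA the same rank receive the same quantile, and a difference of few ranks is then enough to stand apart.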

How the results depend on the processing

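Settings are given for the changes from day 1 to day 3, day 1 to day 5, and day 3 to day 5. Both strands were higher at day 5 than at day 1 under 12 alternatives, from 0.67 to 0.99 for miR-22 and from 0.44 to 1.04 for miR-22*. Among these, no filter, the lower floor, and the replicate block returned the main values of 0.92 and 1.01. The floor and the block could not move them, since both strands lie far above the floor and the block is balanced. With no normalization between arrays, day 3 was below day 1 (-0.31 for miR-22, -0.26 for miR-22*), day 5 was above day 1 by 0.68 and 0.45, and above day 3 by 0.99 and 0.71. With the 75th percentile of the always detected miRNAs, miR-22* changed by 0.47, 0.44, and -0.027, and miR-22 by 0.67 from day 1 to day 5 and 0.26 from day 3 to day 5. With the 75th percentile of all miRNAs, miR-22* changed by 0.54 to day 3 and 0.75 to day 5, and with the sum of signals, a scaling chosen after the data were seen, by 0.51 and 0.76. With normexp it changed by 0.59 to day 3. With the always detected miRNAs alone it changed by 0.44 and 0.60. The change of miR-22 minus that of miR-22* from day 1 to day 5 (-0.08) was 0.23 in all 3 other scalings and without normalization. These settings give the same value by construction, since a factor per array cancels in this difference. It was 0.26 with the always detected miRNAs alone, where that to day 3 was -0.022. Why these values differ from -0.08 was not tested. With the always detected miRNAs alone, 148 were tested, of which 80 were called at day 3 and 109 at day 5. Otherwise 334 were tested, of which 175 and 203 were called. Pairs with both strands called one way from day 1 to day 5 (14 of 50 other pairs) numbered 4 of 15 with this filter. They numbered 8 with no filter, where more pairs were tested, 9 with the 75th percentile of the always detected miRNAs, and 9 without normalization.

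Leaving out 1 array at a time, miR-22 changed by 0.44 to 0.59, 0.87 to 1.00, and 0.34 to 0.45, and miR-22* by 0.73 to 0.87, 0.90 to 1.06, and 0.13 to 0.24. The difference between strands ranged from -0.41 to -0.13, from -0.18 to 0.10 (the highest without day 1 replicate 4, which turned its sign), and from 0.15 to 0.29. The miRNAs called ranged from 150 to 189, 184 to 204, and 63 to 90, the called members of the osteoclast list (10) from 9 to 10, and the pairs from 11 to 15. Arrays of the same replicate number deviated together only in part (correlations from -0.44 to 0.70), so the numbers were not taken as a pairing. With the replicate number as a block, the changes of both strands must stay the same (0.92 for miR-22 from day 1 to day 5), since each number occurs on every day. In that setting 176, 200, and 74 miRNAs were called in place of 175, 203, and 85. The signal of miR-22* over background was 13.3 to 17.4 times, against 186 to 347 times for miR-22.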
